A study of Mus musculus with 6 samples.

Results

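The nuclear pore complex and the receptors that carry cargo through it were followed in 393P cells, a mouse lung adenocarcinoma line that some of the labels spell 9393P. Members were all genes on the array whose symbol belongs to the numbered nucleoporins, the importins alpha and beta or the exportins, together with Ndc1, Pom121, Aaas, Rae1, Seh1l, Ahctf1, Ranbp2, Ranbp1, Ran, Rangap1 and Rcc1. This gave 48 of the 19505 named genes, each read by a single probe set. The rule selects by gene symbol. Tpr, also named in the rule, had no named probe set, and neither had Nup214, Nup42, Nup35, Nup58 or Nup62.

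The cells carried a stable transfection of either AC9 (3 arrays) or the empty VECTOR (3 arrays). The labels do not spell out AC9; the reference gene table has it as another name of Adcy9, which codes for adenylyl cyclase 9. Both groups grew in RPMI with serum and went through transfection with jetPRIME and selection with puromycin or G418. The sources used here do not give which drug belonged to which group, whether a group is 1 clone or a pool, or whether its samples are separate cultures. An effect of AC9 therefore cannot be told apart from one of the drug or of the selected cells. The p-values rest on the spread among these arrays alone, and that spread may be technical.

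Nuclear pores are rings of nucleoporins set in the nuclear envelope. Structural rings hold a channel lined with phenylalanine-glycine repeats, and filaments reach into the cytoplasm while a basket reaches into the nucleus. Importins and exportins bind cargo, in many cases by a signal sequence, and pass the channel. The small GTPase Ran gives the traffic its direction, since Rcc1 on chromatin loads it with GTP and Rangap1 at the cytoplasmic face triggers hydrolysis. In mammalian cells the pores come apart when mitosis begins and are rebuilt on the chromatin as it ends, and several transport proteins also serve the spindle.

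Of the 48 members, 20 were higher in the AC9 cells at a limma adjusted p of 0.05 and 0 were lower. Over all genes tested, 8.26% were called higher and 9.29% lower. At an unadjusted p under 0.05, 27 members were higher and 2 lower, Kpna7 and Ipo8, beside 15.0% and 15.3% of all genes. A level was treated as dim when the mean of a group lay under 6.06, the 90th percentile of the negative control probe sets. By this bound 45 members were above it in both groups, and 3 (Kpna7, Nup210l and Nup62cl) were under it in both groups, so no size of change is given for those 3. Among all genes above the bound in at least 1 group, 13.3% were called higher and 15.4% lower. The 45 brighter members had a median log2 change of 0.31 (AC9 minus VECTOR), against -0.01 over all genes above the bound. The groups did not overlap, with AC9 higher, for 32 of these 45, where 24.8% of the genes above the bound and 17.3% of all genes did the same. They did not overlap, with AC9 lower, for 0 of the 45, beside 27.3% of the genes above the bound. Over all 48 members this held for 1, the dim Kpna7, beside 17.7% of all genes. With a 1.5-fold minimum added to the adjusted p, 5 members were higher (2.98% of all genes), and 11 were at an adjusted p of 0.01 (3.74%). Changes reached 1.77-fold, with standard errors of 0.09 to 0.16 on the log2 scale.

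**Figure D1:**
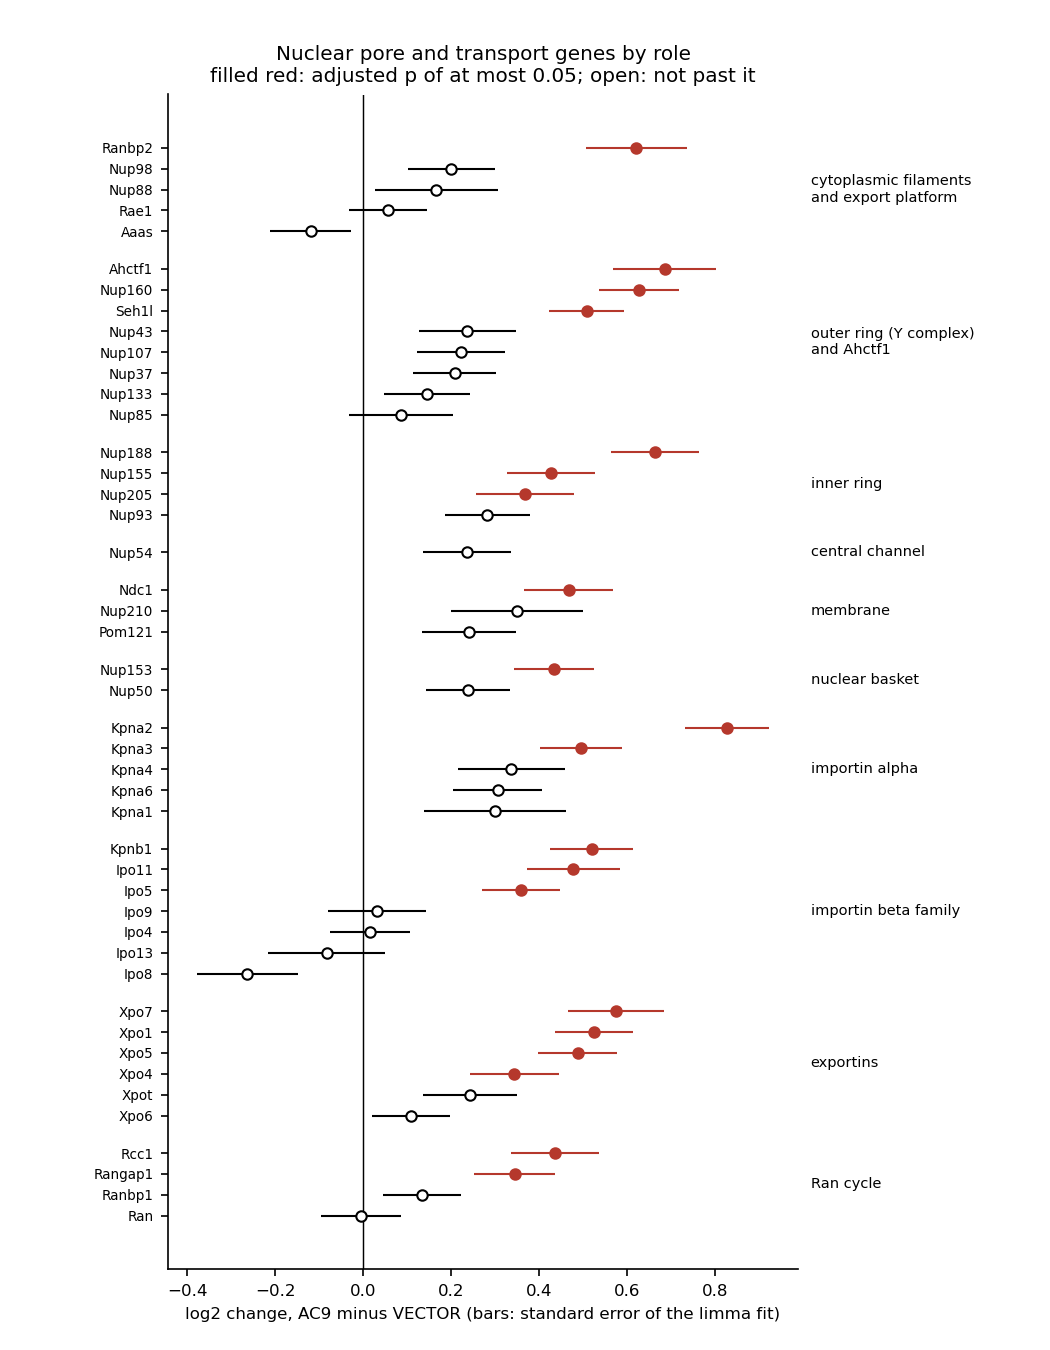
Log2 change (AC9 minus VECTOR, x axis) of the 45 members above the negative-control bound, grouped by role; bars are the standard error of the limma fit and filled red points passed an adjusted p of 0.05. The 20 called members all lie to the right of 0, from 0.34 in Xpo4 to 0.83 in Kpna2, while Ipo8, Aaas, Ipo13 and Ran lie to the left of it without passing.

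Promoter windows are shown for the 4 members that rose furthest and for Ipo11, picked for its motifs, because genes that peak in G2 and M phase share known promoter letters and genes of mitosis were higher in the AC9 cells. The windows are from RefSeq (GRCm38.p6), run from 250 bases before the start of the gene to 50 after it, and were matched by symbol for 39 of the 48 members. The letters searched, on both strands, were TTTGAA and TTCGAA (the CHR element, bound by MuvB complexes), CCAAT (bound by NF-Y), and GCGCGAA and GCGGGAA (E2F sites). Capitals below mark these letters, on whichever strand they were found, and no match overlapped another motif in the members' windows. Kpna2 (chr11:106999476-106999775, minus strand) and Ipo11 (chr13:106936909-106937208, minus strand) are the called members with both CHR and CCAAT letters. Ahctf1 (chr1:179803966-179804265, minus strand), Nup188 (chr2:30286166-30286465, plus strand) and Nup160 (chr2:90676965-90677264, plus strand) are the next largest rises after Kpna2. Kif11 (chr19:37376132-37376431, plus strand), the mitotic kinesin with the largest rise in a G2/M reference list, is shown for comparison.
Kpna2: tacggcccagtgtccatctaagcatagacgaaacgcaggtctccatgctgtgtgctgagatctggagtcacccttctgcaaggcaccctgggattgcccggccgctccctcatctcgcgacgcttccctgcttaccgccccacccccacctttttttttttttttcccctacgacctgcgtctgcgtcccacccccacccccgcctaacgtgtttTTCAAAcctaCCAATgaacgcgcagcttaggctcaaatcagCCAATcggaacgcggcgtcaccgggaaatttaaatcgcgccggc
Ipo11: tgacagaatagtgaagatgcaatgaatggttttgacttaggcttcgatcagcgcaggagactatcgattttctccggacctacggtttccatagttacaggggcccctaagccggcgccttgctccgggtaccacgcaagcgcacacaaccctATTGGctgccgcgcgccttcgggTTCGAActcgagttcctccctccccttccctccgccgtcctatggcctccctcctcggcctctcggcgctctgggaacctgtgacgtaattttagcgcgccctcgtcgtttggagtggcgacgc
Ahctf1: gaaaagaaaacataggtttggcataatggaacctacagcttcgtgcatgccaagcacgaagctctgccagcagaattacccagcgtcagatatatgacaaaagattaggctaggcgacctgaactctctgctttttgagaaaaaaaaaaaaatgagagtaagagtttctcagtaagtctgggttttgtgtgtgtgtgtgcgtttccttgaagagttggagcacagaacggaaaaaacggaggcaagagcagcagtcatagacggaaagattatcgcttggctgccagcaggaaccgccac
Nup188: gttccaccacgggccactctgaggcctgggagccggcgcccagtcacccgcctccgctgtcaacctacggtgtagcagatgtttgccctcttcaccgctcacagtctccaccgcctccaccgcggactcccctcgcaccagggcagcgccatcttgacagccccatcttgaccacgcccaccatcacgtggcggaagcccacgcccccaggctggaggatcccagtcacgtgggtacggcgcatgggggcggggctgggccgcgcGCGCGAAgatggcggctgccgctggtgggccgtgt
Nup160: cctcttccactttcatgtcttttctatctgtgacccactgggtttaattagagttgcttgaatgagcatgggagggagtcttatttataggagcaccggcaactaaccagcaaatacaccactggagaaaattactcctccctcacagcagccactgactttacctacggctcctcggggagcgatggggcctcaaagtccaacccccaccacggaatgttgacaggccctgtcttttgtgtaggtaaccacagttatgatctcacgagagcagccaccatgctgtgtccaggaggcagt
Kif11: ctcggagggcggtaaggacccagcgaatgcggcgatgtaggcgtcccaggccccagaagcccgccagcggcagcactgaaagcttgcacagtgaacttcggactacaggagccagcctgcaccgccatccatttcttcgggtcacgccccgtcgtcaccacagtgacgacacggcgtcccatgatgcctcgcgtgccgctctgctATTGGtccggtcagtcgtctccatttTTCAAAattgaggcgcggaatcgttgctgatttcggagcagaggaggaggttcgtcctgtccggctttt

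In the Kpna2 window the CHR letters stood on the opposite strand at bases 216 to 221, counted from the first base printed. CCAAT stood on the printed strand at 226 to 230 and 257 to 261. In Kif11, CCAAT stood at bases 206 to 210 and the CHR letters at 232 to 237, both on the opposite strand. Ipo11 held CCAAT on the opposite strand at bases 154 to 158 and TTCGAA at 177 to 182. The Nup188 window held only an E2F match, at bases 266 to 272, and those of Ahctf1 and Nup160 held none of the letters. Over the 16 called members with a window, 5 held CHR letters (Kpna2, Ipo11, Ndc1, Rangap1 and Rcc1), as did 6 of the 23 other members. The share was 19.6% over the 15691 named genes with a window, and 16 of 19 genes in the G2/M reference list. CCAAT was present in 6 of the 16 called members, 11 of the 23 others and 42.2% of all genes, and an E2F match in 2, 5 and 9.23%. Of the 19 genes in the G2/M reference list, 16 held CCAAT and 1 an E2F match. Both CHR and CCAAT letters stood in 2 of the 16 called members, 4 of the 23 others and 9.14% of all genes. In the G2/M reference list 15 of 19 genes held both. These counts are descriptions of letters, with no test.

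Among the cytoplasmic filaments and export platform, 1 of 5 members rose. The counts for this and each later role class stand beside 13.3% called higher among the genes above the bound. Ranbp2, the large filament nucleoporin that binds Ran and holds SUMO-modified Rangap1 at the pore, had log2 intensities of 9.57, 9.54 and 9.91 in VECTOR and 10.32, 10.27 and 10.29 in AC9. The groups did not overlap, and VECTOR replicate 3 was the nearest to the AC9 arrays. It rose by 0.62 on the log2 scale (SE 0.12, 1.54-fold, limma adjusted p 0.00591). The other 4 did not pass: the changes were 0.20 in Nup98, 0.17 in Nup88 and 0.06 in Rae1, an mRNA export factor that binds Nup98, and -0.12 in Aaas (aladin). For Rae1 the 95% interval of the change ran from -0.14 to 0.25.

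The outer ring is built of Y-shaped complexes, and Ahctf1 (ELYS) brings them to chromatin when pores are rebuilt. All 8 members of this group had a positive change, beside 49.4% of the genes above the bound, and 3 passed. Ahctf1 read 7.10, 6.95 and 7.30 in VECTOR and 7.93, 7.78 and 7.69 in AC9, with a log2 change of 0.69 (SE 0.12, limma adjusted p 0.00397). Nup160, a Y complex scaffold, read 8.95, 9.05 and 9.12 in VECTOR and 9.68, 9.64 and 9.67 in AC9. The AC9 arrays lay close together and apart from all VECTOR arrays, and the change was 0.63 (SE 0.09, limma adjusted p 0.00178). Seh1l, a Y complex subunit that also takes part in nutrient signalling to mTORC1, rose by 0.51 (SE 0.09, limma adjusted p 0.00361). The 5 that did not pass were Nup43, Nup107, Nup37, Nup133 and Nup85, with changes of 0.24, 0.22, 0.21, 0.14 and 0.09. Among the members, subunits of 1 complex thus had values from 0.09 to 0.63. Sec13, a further Y complex subunit outside the symbol rule, had -0.05 (95% interval -0.24 to 0.15) and did not pass (limma adjusted p 0.768). Whether the subunits differed from each other was not tested.

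The inner ring anchors the channel nucleoporins, and 3 of its 4 measured genes rose. Nup188, a large scaffold protein that pairs with Nup93, read 8.40, 8.45 and 8.43 in VECTOR and 8.93, 9.18 and 9.16 in AC9. The VECTOR arrays agreed within an SD of 0.03, and AC9 replicate 1 was the lowest of its group but above all of them. It rose by 0.66 (SE 0.10, 1.58-fold, limma adjusted p 0.00210). Nup155 rose by 0.43 and Nup205, a paralog of Nup188, by 0.37 (limma adjusted p 0.0172 and 0.0487). Nup93 had a change of 0.28 and an adjusted p of 0.0789 by limma. Its AC9 arrays lay above its VECTOR arrays without overlap, as in 24.8% of the genes above the bound.

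Neither channel member, Nup54 or Nup62cl, passed, and the channel genes Nup62 and Nup58 had no named probe set. Nup54, one of the channel nucleoporins with phenylalanine-glycine repeats, read 10.18, 10.19 and 10.37 in VECTOR and 10.57, 10.39 and 10.48 in AC9, a change of 0.23 (SE 0.10, limma adjusted p 0.148). The lowest AC9 array lay just above the highest VECTOR array. The other channel member, Nup62cl, was dim, with group means of 3.39 in VECTOR and 3.60 in AC9 and a limma adjusted p of 0.253.

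Among the membrane nucleoporins, which fix the pore in the envelope, 1 of 4 rose. Ndc1 read 9.74, 9.96 and 10.02 in VECTOR and 10.38, 10.37 and 10.38 in AC9. Its AC9 values were the tightest of the named members (SD 0.01), and the change was 0.47 (SE 0.10, limma adjusted p 0.0121). Nup210 had 0.35 (SE 0.15) with overlapping groups, Pom121 had 0.24, and the paralog Nup210l was dim.

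In the nuclear basket, Nup153 rose and Nup50 did not pass, while Tpr, also a basket gene, had no named probe set. Nup153, which holds the basket and binds importins, read 9.45, 9.58 and 9.56 in VECTOR and 10.00, 10.00 and 9.89 in AC9. The change was 0.43 (SE 0.09, limma adjusted p 0.0107). Nup50, a cofactor of importin alpha release, had 0.24 with a limma adjusted p of 0.124.

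**Figure D2:**
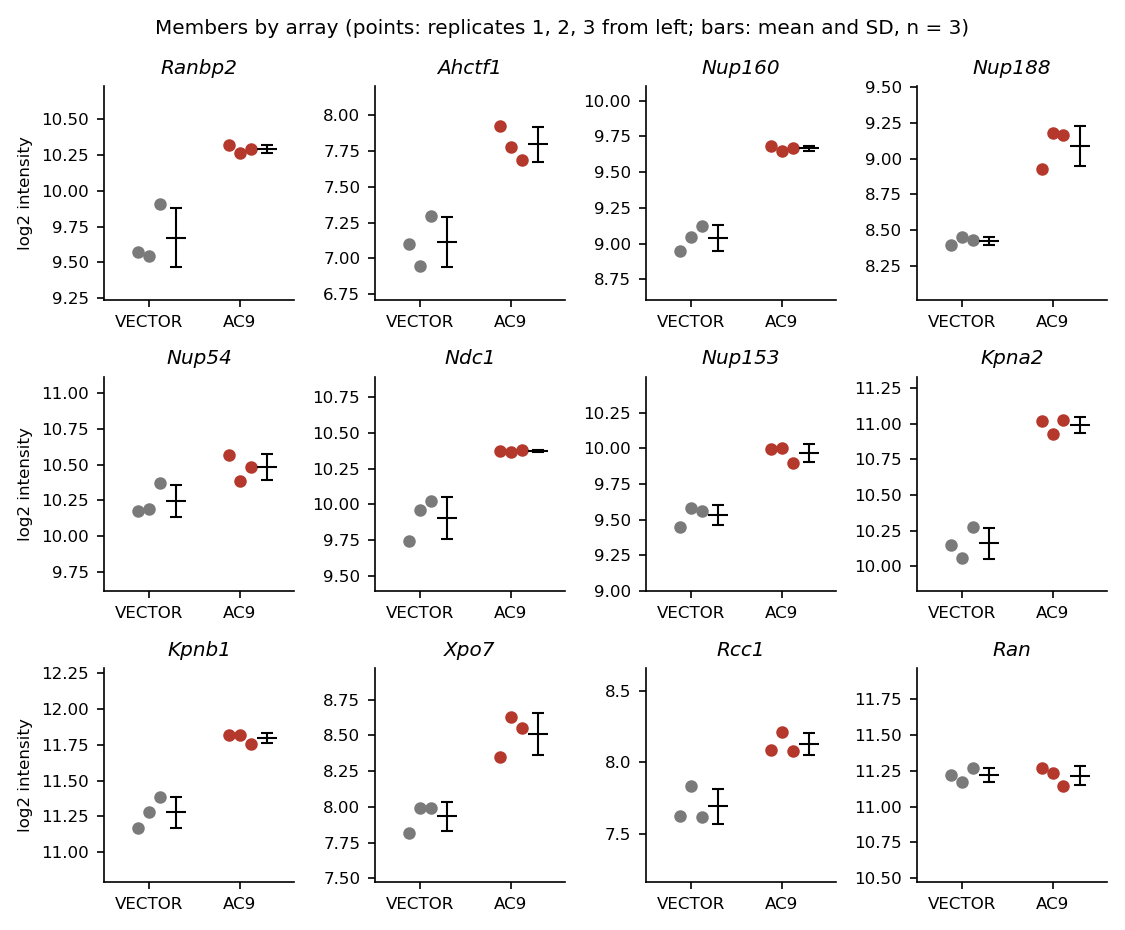
Log2 intensity (y axis, a span of the same size in every panel) of 12 members on the 3 VECTOR and 3 AC9 arrays, with the mean and SD of each group (n = 3). The AC9 points lie above the VECTOR points in every panel but that of Ran, whose group means are both 11.22.

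Importin alpha proteins bind the classical nuclear localisation signal and are themselves carried by importin beta. Kpna2 rose furthest of all members. It read 10.15, 10.06 and 10.27 in VECTOR and 11.02, 10.93 and 11.02 in AC9, and every AC9 array lay well above every VECTOR array. The log2 change was 0.83 (SE 0.10, 95% interval 0.61 to 1.04), 1.77-fold, at an adjusted p of 0.000532 by limma. Kpna3 rose by 0.49 (SE 0.09, limma adjusted p 0.00638), and its interval, 0.28 to 0.70, overlapped that of Kpna2. Kpna4, Kpna6 and Kpna1 had changes of 0.34, 0.31 and 0.30 and did not pass (limma adjusted p 0.0920, 0.0687 and 0.252). Their AC9 arrays lay above their VECTOR arrays without overlap, as in 24.8% of the genes above the bound. In Kpna1, VECTOR replicate 2 stood apart at 7.49, against 8.07 and 8.13 in the other VECTOR arrays. Without that array the changes were 0.097 in Kpna1 and 0.21 in Kpna4. Kpna7, an importin alpha of oocytes and early embryos, was dim in both groups, with means of 4.18 and 3.91.

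In the importin beta family, 3 of 7 genes rose. Kpnb1, importin beta 1, which carries the alpha adapters and also regulates spindle factors, read 11.17, 11.28 and 11.38 in VECTOR and 11.82, 11.82 and 11.76 in AC9. The groups were well apart, and the rise was 0.52 (SE 0.09, 1.43-fold, limma adjusted p 0.00540). Ipo11, a carrier of ubiquitin-conjugating enzymes, rose by 0.48 and Ipo5, a carrier of ribosomal proteins and histones, by 0.36 (limma adjusted p 0.0138 and 0.0219). The other 4 did not pass. Ipo9 had a change of 0.03 (95% interval -0.22 to 0.28) and Ipo4 one of 0.01 (-0.19 to 0.22). Ipo13, which works in both directions, had -0.08 (-0.38 to 0.22). Ipo8 had -0.26 (-0.52 to -0.0035), the lowest value among the brighter members, with a limma adjusted p of 0.160. Its VECTOR arrays read 8.03, 8.35 and 8.34 and its AC9 arrays 7.97, 7.88 and 8.08, so that the groups overlapped.

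Of the exportins, 4 of 6 rose, beside 13.3% of the genes above the bound. In all 6 the AC9 arrays lay above the VECTOR arrays without overlap, as in 24.8% of those genes. Xpo7, an exportin for folded proteins that also imports some cargo, read 7.82, 7.99 and 7.99 in VECTOR and 8.35, 8.63 and 8.56 in AC9. It rose by 0.57 (SE 0.11, 1.49-fold, limma adjusted p 0.00628). Xpo1, the exportin of leucine-rich export signals, rose by 0.52 (SE 0.09, limma adjusted p 0.00361), with AC9 arrays of 10.63, 10.66 and 10.66 against 10.20, 10.08 and 10.10. Xpo5, which carries pre-miRNA hairpins, rose by 0.49 and Xpo4 by 0.34 (limma adjusted p 0.00603 and 0.0456). Xpot, the tRNA exportin, and Xpo6, the actin exportin, had 0.24 and 0.11 and did not pass (limma adjusted p 0.160 and 0.475).

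In the Ran cycle 2 of 4 genes rose, and Ran itself was not among them. Rcc1, the chromatin-bound exchange factor, read 7.62, 7.83 and 7.62 in VECTOR and 8.08, 8.21 and 8.08 in AC9. Its change was 0.44 (SE 0.10, limma adjusted p 0.0162). Rangap1, the GTPase activator, rose by 0.34 (SE 0.09, limma adjusted p 0.0301). Ran, the GTPase that both act on, read 11.22, 11.17 and 11.27 in VECTOR and 11.27, 11.24 and 11.14 in AC9, and the groups overlapped. Its change was -0.01 with a 95% interval of -0.21 to 0.20, so a rise of the size of that in Rcc1 lay outside the interval. After median centring of the arrays it was 0.019. Ranbp1, which assists Rangap1, had 0.13 (95% interval -0.07 to 0.33).

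The members' shift was seen array by array. Each of the 45 brighter members was set against its own mean over the 6 arrays. The median deviation was -0.19, -0.18 and -0.09 for VECTOR 1, 2 and 3, and 0.13, 0.20 and 0.14 for AC9 1, 2 and 3. VECTOR replicate 3 was nearest to the AC9 arrays, with 16 of the 45 members above their own mean, against 4 and 6 on the other VECTOR arrays and 40 to 43 on the AC9 arrays. Over all genes the median deviations were between -0.01 and 0.01.

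**Figure D3:**
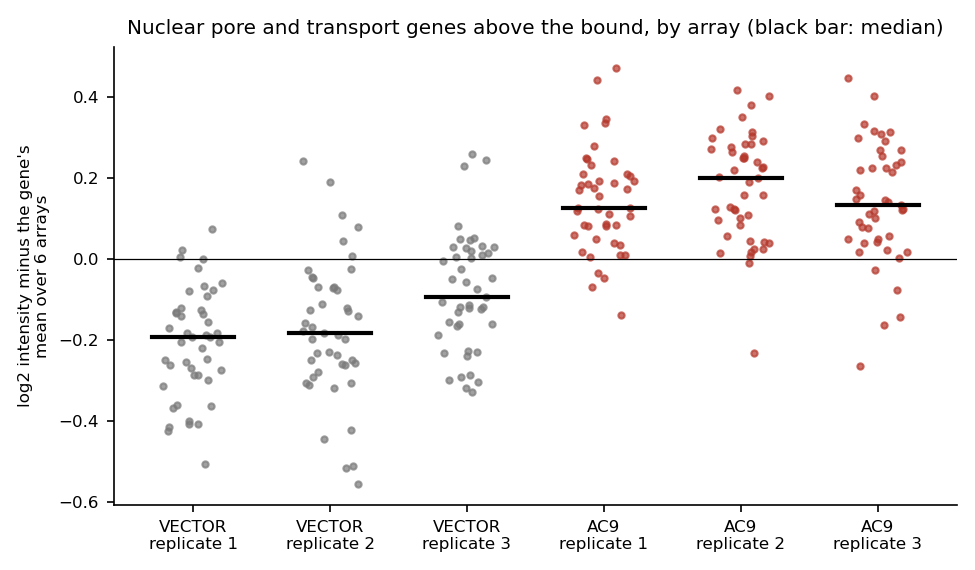
Log2 intensity of each of the 45 members above the bound minus its own mean over 6 arrays (y axis), by array (x axis); the black bar is the median over members and the horizontal spread of points has no meaning. The medians are -0.19, -0.18 and -0.09 in VECTOR and 0.13, 0.20 and 0.14 in AC9.

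Other genes of the pathway were taken from a wider list, which held other pore proteins, carriers, Ran partners and mRNA export factors, of which 43 of 50 were measured. Of these, 6 rose and 1 fell, beside 8.26% and 9.29% of all genes and 13.3% and 15.4% of the genes above the bound, where 41 of the 43 lay. Without VECTOR replicate 1, AC9 replicate 1 or AC9 replicate 2, 3 were higher, with no share over all genes counted. The median log2 change was 0.04. Thoc1, a subunit of the THO complex of mRNA export, rose by 0.82 (SE 0.14, limma adjusted p 0.00356) and Ranbp9, a scaffold of an E3 ligase, by 0.51. The RNA helicase Ddx19b rose by 0.40, the SUMO protease Senp1 by 0.36 and the import carrier Tnpo1 by 0.36 (transportin 1). Cse1l, the exportin that returns importin alpha to the cytoplasm, was chosen for mention after its value was seen and rose by 0.30 (limma adjusted p 0.0442). Gle1, which activates the helicase at the cytoplasmic face, fell by 0.31 (limma adjusted p 0.0490). After median centring, 7 of the list were higher and 0 lower, again with no share over all genes counted. Leaving out any array ended the calls of Cse1l (adjusted p 0.0698 to 0.152) and Gle1 (0.0596 to 0.140). Those of Tnpo1 (without VECTOR replicate 1 or any AC9 replicate, up to 0.0769), Senp1 (without VECTOR replicates 1 or 3 or AC9 replicates 1 or 2, up to 0.0938) and Ddx19b (without AC9 replicate 3, 0.0542) were lost too.

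Markers of other processes moved with the members. All 24 measured genes of the G2/M reference list, none of them a member, were higher in AC9, with a median log2 change of 1.70 and a range of 0.70 to 2.38. Kif11, the spindle kinesin, rose by 2.38, the checkpoint kinase Bub1 by 2.14 and the proliferation antigen Mki67 by 2.12. Aspm, a spindle pole protein with a dim VECTOR level, rose at least 2.83-fold, the AC9 mean over the negative-control bounds of the VECTOR arrays themselves (mean 6.03). For this list the median deviation from a gene's own mean was -0.90, -0.86 and -0.76 in VECTOR and 0.82, 0.83 and 0.92 in AC9. Of the members, only Kpna2 had a change above the smallest in that list. Background probe sets, which match no transcript, ran the other way from the members, with 19 of 23 lower in AC9 without overlap and a largest log2 shift of -0.50. The part of either in the members' values was not tested.

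**Figure D4:**
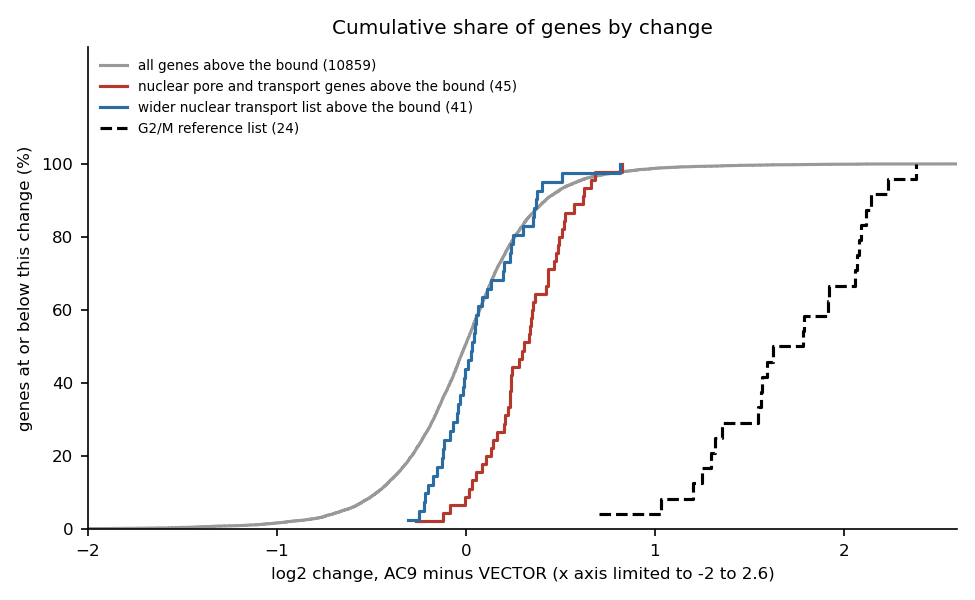
Cumulative share of genes (y axis, percent) at or below a given log2 change (AC9 minus VECTOR, x axis) for all genes above the bound, the 45 members above it, the wider nuclear transport list above it and the G2/M reference list. The members' median lies to the right of that of all genes (0.31 and -0.01), and their curve lies to the left of the G2/M list (median 1.70). The largest change is 0.83 among the members and 2.89 among all genes above the bound, so these 2 curves cross at the upper end.

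The targeted gene and the cell type were checked by their own probe sets. Adcy9 was higher in AC9, at 6.73 ± 0.12 against 6.12 ± 0.03 (SD, n = 3), a log2 change of 0.61 from a VECTOR level just above the bound. The sources used here do not give whether this probe set detects the transfected copy. Of 10 epithelial markers, 8 or 9 were above the bound on each array, with Cdh1 and Krt8 bright in both groups; 3 rose and 1 fell. Of 5 lung alveolar and airway markers, 0 or 1 were above it on an array, and Nkx2-1 and Sftpc were dim. The marker above it was Napsa, a protease of alveolar cells, on the VECTOR arrays only. Its means were 6.23 in VECTOR and 5.92 in AC9 (limma adjusted p 0.0630). Its AC9 arrays lay below its VECTOR arrays without overlap, as in 27.3% of the genes above the bound in a group. No leukocyte marker (6) and no endothelial marker (4) was above it, and 1 or 2 of 5 fibroblast markers were, Col1a1 among them.

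For 13 of the 20 called members the call held whichever array was left out. Nup205 lost it without any array but VECTOR replicate 1 (adjusted p 0.0855 to 0.148), Xpo4 without any but VECTOR replicate 2 (0.0776 to 0.135) and Rangap1 without any but VECTOR replicate 3 (0.0565 to 0.0998). Ipo5 lost it without VECTOR replicates 1 or 2 or AC9 replicates 1 or 3 (0.0571 to 0.0796), and Nup155 without VECTOR replicates 1 or 2 or AC9 replicate 1 (0.0521 to 0.0737). Rcc1 lost it without VECTOR replicate 1 or AC9 replicate 2 (0.0559 to 0.0610), and Ipo11 without AC9 replicate 2 (0.0528).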

How the data were processed

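Total RNA of 6 samples was hybridised to Affymetrix Clariom S arrays, 1 per sample, per the labels' protocols. The deposited values are log2 intensities per probe set, made by the authors with RMA per the submitters' processing notes. The sources used here do not give the software, its version or the genome build. Of 22206 probe sets that were not controls, 19572 had 1 gene symbol in GEO's platform annotation, 0 had several and 2634 were unnamed here. All 19572 matched a RefSeq gene table (GRCm38.p6) by gene number, with 0 symbols changed. For 55 genes with several probe sets the one with the highest mean was taken, which left 19505 genes.

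The contrast of AC9 minus VECTOR was fitted in R 4.3.3 by limma 3.58.1 (lmFit, then eBayes at a constant prior variance, two-sided), with Benjamini-Hochberg adjustment over all genes and no filter. The fit was tested on simulated data with independent noise, which does not cover effects shared by the arrays of a group. Standard errors and 95% intervals are those of the fit, and the number of arrays limits the precision. Members with values for each array were those with the 4 largest changes, the called member of largest change in each role class or, where none passed, those of smallest p; those of Xpo1, Ran, Kpna1 and Ipo8 were added after their values were seen. The members, the lists and the rule were chosen with earlier results of these data known. Protein sequences were not used here. Replicate numbers were not used to pair the samples, since the labels do not say that they do. Deviations of same-numbered arrays correlated at 0.01, 0.08 and 0.01, and those of other pairs ran from -0.09 to 0.09. With so few arrays these values cannot show whether samples were processed in pairs.

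Alternatives were an intensity-trended robust prior, repeated quantile normalization, median centring, a filter at the 40th percentile of mean level, averaged probe sets, array weights, a replicate block, omission of single arrays, an adjusted p of 0.01 and a 1.5-fold threshold.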

Additional observations from a re-analysis of the deposited data

Results flagged for a closer look

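Outside the probe sets of genes, 19 of the 23 background probe sets were lower in AC9 without overlap between the groups, and 0 were higher, a signal in data that the comparison of genes does not use. The median log2 shift of the 23 was -0.06.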

How the results depend on the processing

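Of the 48 members, 15 to 27 were called higher under the other normalizations, priors, filters and left-out arrays, against 20. The trended robust prior gave 27 (11.5% of all genes), leaving out dim genes 23 of the 45 members left (17.3% of the genes kept) and the replicate block 18 (7.23%). For the other normalizations, averaged probe sets, array weights and left-out arrays, the share over all genes was not counted. With an array left out, 15 to 18 members were called, and whether other genes lost calls alike was not examined. At an adjusted p of 0.01 the count was 11 (3.74% of all genes), and with a 1.5-fold threshold it was 5 (2.98%): Kpna2, Ahctf1, Nup188, Nup160 and Ranbp2. Repeated quantile normalization called 1 member lower, the dim Kpna7; every other setting gave 0. The members' median change was 0.25 to 0.32 over all settings, against 0.29. The replicate block ended the calls of Nup205 (adjusted p 0.0758) and Xpo4 (0.0690) and changed no other member's call.

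In the wider list, the number higher was 6, with 3 to 5 when an array was left out and 5 to 9 under the other fits. The trended robust prior gave 9 (11.5% of all genes), leaving out dim genes 9 of the 42 left (17.3% of the genes kept) and the replicate block 5 (7.23%). The count was 2 at an adjusted p of 0.01 (3.74% of all genes) and 1 with the 1.5-fold threshold (2.98%). Shares over all genes were not counted for the other settings, nor for genes lower outside the main fit. The number lower, 1 (Gle1), was 0 with repeated quantile normalization, median centring, array weights, the replicate block, any array left out, an adjusted p of 0.01 or the 1.5-fold threshold, and 2 without dim genes.

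No called member changed sign, but 4 uncalled ones above the bound did. With median centring Ran read 0.019. Over the left-out arrays, Ran ran from -0.0324 to 0.0306, Ipo13 from -0.15 to 0.0278, Ipo4 from -0.0188 to 0.0519 and Ipo9 from -0.026 to 0.12.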
